A study of Mus musculus with 12 samples.

Results

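The genes described here are the insulin-like growth factor (IGF) axis of mouse back skin: the ligands Igf1 and Igf2, the receptors Igf1r and Igf2r, and the binding proteins Igfbp2, Igfbp3, Igfbp4, Igfbp5, Igfbp6 and Igfbp7. They were found on the array by their gene names, 10 of 27373 names in all, and 21 probes carry them. The skin came from male C57BL/6J mice, 8 weeks old by the labels, whose shaved backs received 200 µL a day of 3% minoxidil (MXD, the positive control), of 10% Notocactus ottonis cell extract (N-CE), or of the vehicle alone (VC, a mixture of propylene glycol, ethanol and water). Skin was taken after 1 week, 2 weeks or 3 weeks (1W, 2W, 3W), and every group of 6 mice was made into 1 RNA pool, which leaves 9 pools and no biological replicate. A treated pool and the VC pool of its week shared 2 arrays, the second with Cy3 and Cy5 swapped, for 12 arrays and 6 comparisons in all. MXD and N-CE of one week were measured against the same VC pool, and the arrays of one week lie on one slide, so week and slide cannot be told apart. The tissue was the whole skin with its muscle layer, so fewer cells of a type and less RNA per cell cannot be told apart in any value below.

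IGF-1 is a secreted growth factor that signals through the IGF-1 receptor to the PI3K and AKT kinases, and in skin it is made largely by fibroblasts and dermal papilla cells and acts on the epithelium of the follicle. IGF-2 signals through the same receptor, while the IGF-2 receptor takes IGF-2 up for degradation. IGFBP-2 to IGFBP-6 hold IGFs with high affinity and can withhold or deliver them, IGFBP-6 prefers IGF-2, and IGFBP-7 binds IGFs only weakly. Proteases such as pregnancy-associated plasma protein A (PAPP-A, gene Pappa) cut binding proteins and release the ligand.

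The value of each gene rests on its brightest probe, a 60-base oligonucleotide. For Igfbp3, which met the criterion below with all its probes, and for the ligand Igf2, the first 30 bases are shown, since these are the letters the labelled RNA was captured with. The exon or untranslated part they belong to was not determined here. The positions are those of the array files on mm9.
Igfbp3, probe A_52_P253179, chr11:7106594-7106653, minus strand: gcagttttccaaaaacacagatttcttttc
Igf2, probe A_51_P516826, chr7:149836673-149836709 in the file, which covers 37 of its 60 bases, minus strand: aacatgcattttctggcaaaatcaaagctt

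All 10 genes have at least 1 of the 32851 promoters in the RefSeq table (build GRCm38.p6), 14 in all, and the 250 bases before each gene start were searched on both strands. The letters sought were TATANA, as in a TATA box, which 22.6% of all promoters hold. GGGCGG, the core of a GC box, is in 32.7% of them. CTTTGA, the core bound by TCF and LEF factors, is in 13.8%, and the forkhead letters GTAAACA are in 3.17%. TATANA can overlap its own match on the other strand. The promoters of Igfbp3, Igfbp6 and Igfbp7 are shown because the first and the second were down-regulated by MXD at 2W and the last had a log2 fold of -0.09 there. Capitals mark the matches.
Igfbp3, chr11:7213924-7214173, minus strand: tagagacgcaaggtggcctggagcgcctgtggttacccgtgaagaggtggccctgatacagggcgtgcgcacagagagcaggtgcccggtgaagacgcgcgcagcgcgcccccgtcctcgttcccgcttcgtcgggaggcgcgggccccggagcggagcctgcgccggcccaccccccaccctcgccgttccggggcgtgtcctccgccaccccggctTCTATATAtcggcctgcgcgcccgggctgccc
Igfbp6, chr15:102143936-102144185, plus strand: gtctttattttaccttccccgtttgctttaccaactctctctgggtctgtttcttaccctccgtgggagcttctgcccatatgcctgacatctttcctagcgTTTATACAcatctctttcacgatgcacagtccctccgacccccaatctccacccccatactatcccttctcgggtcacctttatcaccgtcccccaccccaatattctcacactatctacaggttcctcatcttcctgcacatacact
Igfbp7, chr5:77408046-77408295, minus strand: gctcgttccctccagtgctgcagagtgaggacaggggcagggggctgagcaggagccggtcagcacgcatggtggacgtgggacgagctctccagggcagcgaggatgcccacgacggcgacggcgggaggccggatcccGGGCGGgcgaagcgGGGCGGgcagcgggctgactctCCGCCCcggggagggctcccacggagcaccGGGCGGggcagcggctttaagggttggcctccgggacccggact
The Igfbp3 promoter held 2 overlapping matches to TATANA, starting 32 and 30 bases before the gene start, and the Igfbp6 promoter held 2 overlapping matches that start 148 and 146 bases before it. Neither held GGGCGG, of which the Igfbp7 promoter had 4 copies and no TATANA. Among the other genes, Igfbp4 had TATANA 28 bases before its start, and GGGCGG had 3 copies in Igfbp2, 3 over the promoters of Igf2, 2 in Igf1r and 3 in Igf2r. A promoter each of Igf1, Igf2 and Igf1r held CTTTGA, and no promoter of the 10 genes held GTAAACA. The promoter of Igfbp5, which was also lower in MXD at 2W but not called, held none of the letters sought. These are descriptions of letters and say nothing about which factors were bound.

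The fold is given as the log2 of treated over VC, averaged over the dye swap, with the SD over its 2 arrays, and a positive value means more in the treated skin. A gene was called up- or down-regulated when the scanner software's P was under 0.01 on both arrays, the direction was the same on both, and the mean fold was above 1.5 or below 0.75. Of all genes measured, 16.2% were called in MXD at 2W, against 2.51% in MXD at 1W, 0.58% in MXD at 3W, 3.32% in N-CE at 1W, 0.193% in N-CE at 2W and 0.423% in N-CE at 3W. The P describes a spot and not the mice. All 10 genes were measured in every comparison, and their brightest probes were well above background in 240 of 240 readings. Across genes well above background, the log2 folds of the dye swap correlated with r of 0.62, 0.74 and 0.31 in MXD at 1W, 2W and 3W, and of 0.68, -0.16 and 0.35 in N-CE, genes not being independent replicates. Across these genes as a whole, N-CE at 2W did not repeat when the dyes were exchanged.

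In MXD at 2W the binding proteins Igfbp3 and Igfbp6 were down-regulated, and by the brightest probes they were the only calls among the 10 genes in the 6 comparisons. The share called lower was 2 of 10, where 10.0% of the 18753 genes measured were called lower and 6.21% higher, and in so small a set the count is not a result about the axis as a group. Igfbp3, the main IGF carrier of the blood and also a product of dermal cells, had processed signals of 2416 and 1563 in MXD and of 5794 and 4190 in VC. Both MXD readings lay below both VC readings. The log2 fold was -1.34 ± 0.11, which is 2.54-fold lower, and 2.59% of the genes measured lay lower still. The software's P was 7.39e-08 on one array and 4.29e-09 on the other. The other Igfbp3 probes were called too, with -1.36 ± 0.05 (A_52_P851352) and -1.80 ± 0.14 (A_51_P228472, the dimmest), so all 3 probes had one direction, where 8.36% of all probes were called lower. With normexp background correction and loess the dimmest probe came to -0.45.

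Igfbp6, the binding protein with a preference for IGF-2, had processed signals of 5827 and 4261 in MXD against 10475 and 8711 in VC, again without overlap. Its log2 fold was -0.94 ± 0.13, 1.92-fold lower, with P of 1.05e-04 and 4.45e-06. The gene has 1 probe on the array. With normexp and loess the brightest probes of Igfbp3 and Igfbp6 had -1.32 and -0.94.

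**Figure D1:**
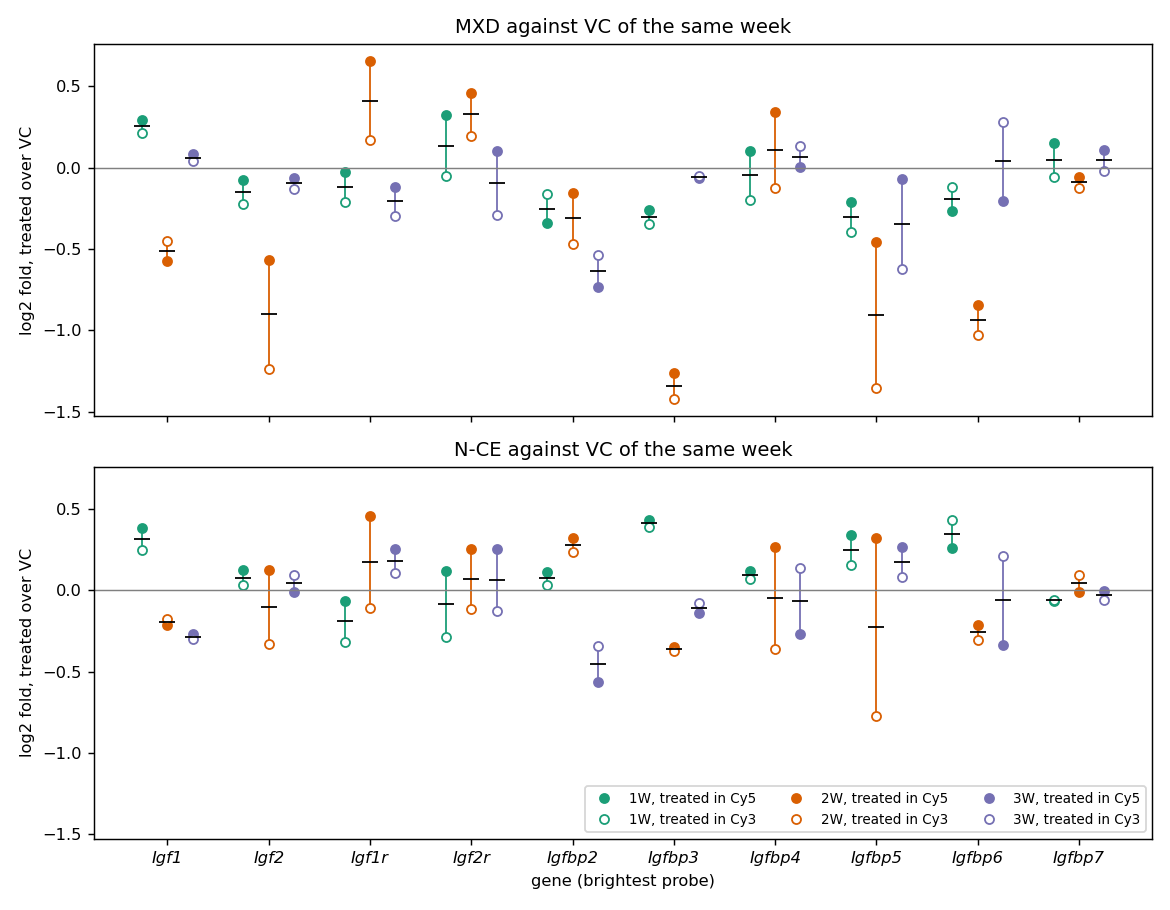
Log2 fold of treated over VC (vertical axis) for the 10 genes by their brightest probe (horizontal axis), MXD above and N-CE below, with weeks in colour. Filled and open points are the 2 arrays of a dye swap, the line joins them and the dash is their mean; Igfbp3 in MXD at 2W lies lowest, at -1.34, while Igfbp7 stays near 0.

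Both ligands were lower in MXD at 2W as well, but not by the criterion. Igf2 gave 614 and 397 in MXD and 909 and 936 in VC, which do not overlap. Its log2 fold was -0.57 with MXD in Cy5 and -1.24 with MXD in Cy3, a mean of -0.90 ± 0.47, and the P of the first array was 0.0108, just past the threshold. The second Igf2 probe gave -0.92 ± 0.57, and it too was lower with MXD in Cy3. With normexp and loess the probes gave -0.79 and -0.46. Igf1, the ligand known for keeping follicles in their growth phase, gave 3672 and 3273 in MXD and 5474 and 4468 in VC. Its mean log2 fold was -0.51 ± 0.09, with P of 0.00591 and 0.0266. Of its other probes, A_52_P351116 was called lower with -0.58 ± 0.02, A_52_P536434 gave -0.54 ± 0.12 without a call, and the dim probe A_52_P306327 gave 0.17 ± 0.29. The 3 bright probes of Igf1 thus lie within 0.1 of each other and the dim one apart from them.

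Igfbp5, a binding protein that attaches to the matrix around cells, gave 16578 and 11291 in MXD and 22746 and 28913 in VC. All MXD readings were lower, yet by unequal amounts: the log2 folds were -0.46 and -1.36, a mean of -0.91 ± 0.64, and only the array with MXD in Cy3 passed the P. A weaker Igfbp5 probe had -1.01 and -0.58, so the order of the arrays turned while both stayed below 0. Igfbp2 had -0.31 ± 0.22.

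The receptors stood on the other side of 0. Igf1r, the signalling receptor, gave 3433 and 2665 in MXD and 2180 and 2372 in VC, a log2 fold of 0.41 ± 0.34, and its 4 probes had means from 0.15 to 0.41. On the array with MXD in Cy5 alone Igf1r passed the criterion, with 0.65 and P of 0.00208, and on the other it had 0.17. Igf2r had 0.33 ± 0.19. Neither receptor was called. Igfbp4 and Igfbp7, the latter a vessel-associated protein, had 0.11 ± 0.33 and -0.09 ± 0.05.

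**Figure D2:**
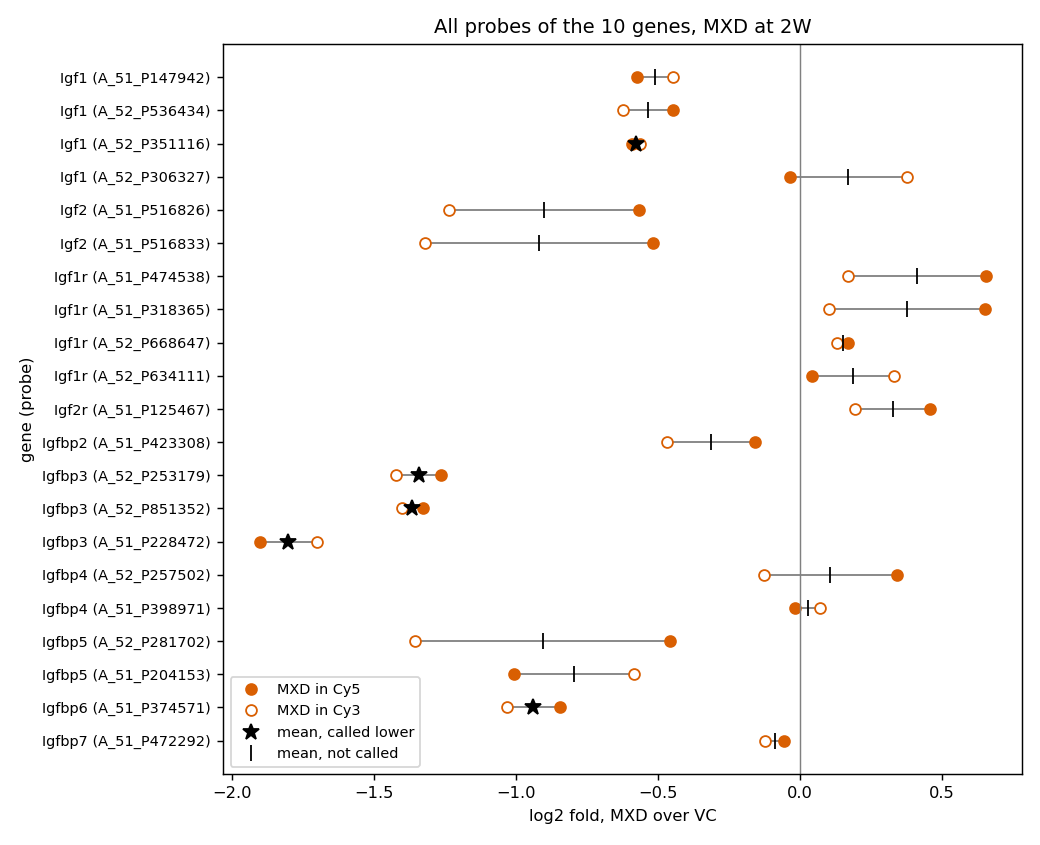
Log2 fold of MXD over VC at 2W (horizontal axis) for all 21 probes of the 10 genes (vertical axis). Filled and open circles are the arrays with MXD in Cy5 and Cy3, stars are means of probes called lower and ticks are means of probes without a call; the 3 Igfbp3 probes lie between -1.80 and -1.34.

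Taken over the 10 genes, MXD at 2W had a median log2 fold of -0.41 ± 0.11 (SD of the medians of the 2 arrays), against 0.03 over all genes, with 7 genes below 0. The genes ranged from -1.34 to 0.41, and 9 of 10 had the same direction on both arrays, a share not computed over all genes. Of all genes measured, 90% lay between -1.10 and 0.93, so Igfbp3 was outside that range and the other 9 within it.

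Markers of several cell types moved in the same pools. Of 10 skeletal muscle markers 10 were down-regulated in MXD at 2W, with a median of -1.48 ± 0.16 and summed signals of 393699 and 227656 in MXD against 919773 and 720008 in VC. Of 10 fibroblast markers 4 were down-regulated, with a median of -0.70 ± 0.10 and sums of 430365 and 304741 against 716856 and 559281, among them Lum with -1.13 and Dcn with -0.98. Lum and Dcn encode small proteoglycans of the collagen matrix. Down-regulated were also 7 of 10 adipocyte markers (median -0.75 ± 0.06, sums of 266632 and 210268 against 393904 and 316897), 5 of 9 macrophage markers (-0.74 ± 0.03, 59499 and 40936 against 112061 and 70243) and 4 of 10 endothelial markers (-0.49 ± 0.11, 25101 and 19936 against 32220 and 30235). Hair shaft and inner root sheath genes went the other way, 10 of 10 up-regulated with a median of 1.22 ± 0.07 and sums of 1098961 and 1009776 against 422264 and 464439. Of 9 melanocyte markers 8 were up-regulated (1.24 ± 0.13, 99186 and 86253 against 47331 and 34853). Of 8 dermal papilla markers measured 2 were up-regulated, Alx4 and Wif1, with a list median of 0.52 ± 0.36 and sums of 10386 and 8858 against 6141 and 5435, and Sox2 and Prom1 were not well above background. With normexp and loess the dermal papilla median came to 0.21. Of 10 epidermal markers 4 were down- and 1 up-regulated, with a median of -0.23 ± 0.03 and sums of 600547 and 402942 against 774218 and 715300. The part of these shifts in the values of Igfbp3, Igfbp6, Igf1, Igf2 and Igfbp5 was not tested.

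**Figure D3:**
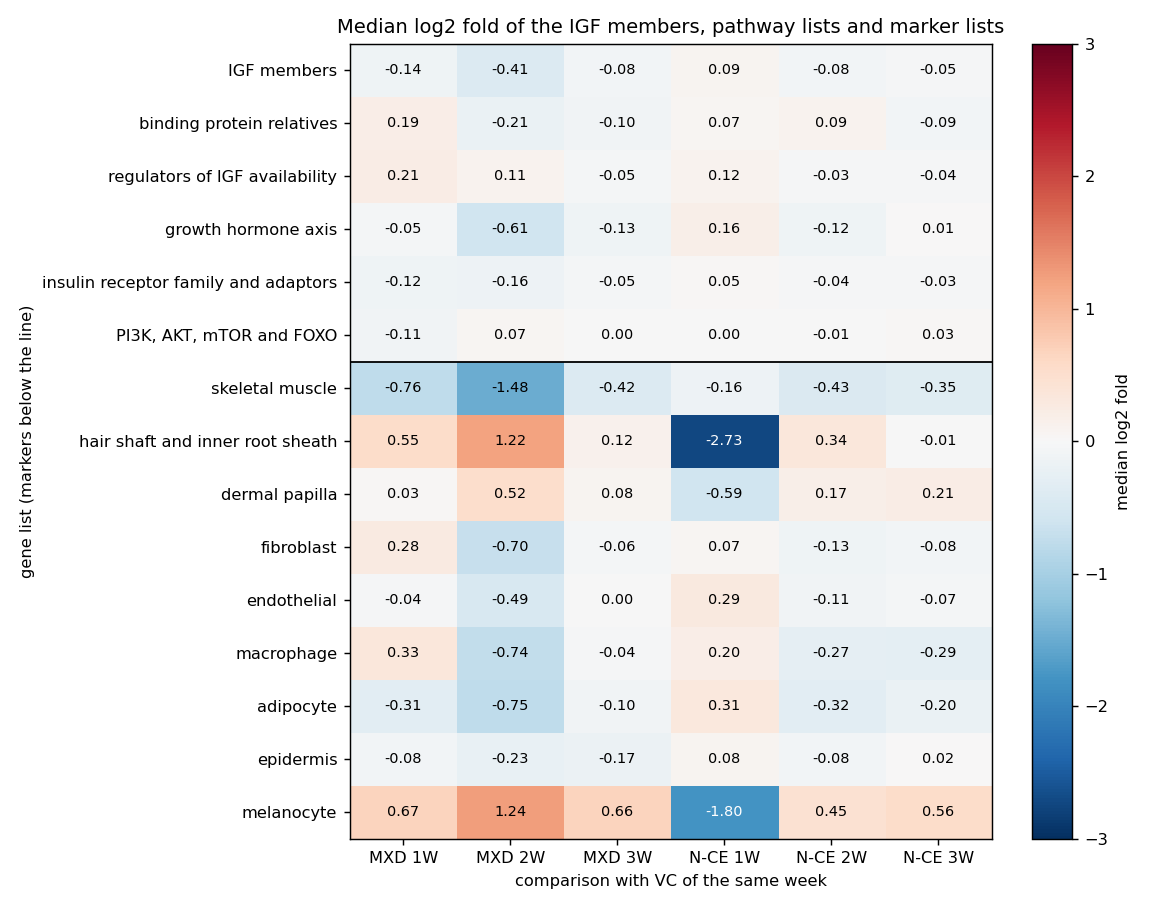
Median log2 fold (colour and printed value) of the IGF genes, 5 other pathway lists and 9 marker lists (rows) in the 6 comparisons with VC (columns). The IGF genes have their lowest median, -0.41, in MXD at 2W, where the skeletal muscle list is at -1.48 and the hair shaft list at 1.22.

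In MXD at 1W none of the 10 genes was called (0 of 10), and the median was -0.14 ± 0.09. Igf1 was higher than VC, with 4919 and 4782 against 4011 and 4124 and a log2 fold of 0.25 ± 0.06. Igfbp3 gave -0.30 ± 0.06, Igfbp5 -0.31 ± 0.13, Igfbp2 -0.25 ± 0.13 and Igfbp6 -0.19 ± 0.11, each below 0 on both arrays. The weaker Igfbp5 probe A_51_P204153 went the other way, with 0.28 ± 0.35 and both arrays above 0. The side that Igfbp5 had at 2W was thus found at 1W with its brightest probe alone, while Igfbp2, Igfbp6 and the 3 probes of Igfbp3 were below 0 in both weeks. The other Igf1 probes had means from 0.10 to 0.26. The skeletal muscle list was at -0.76 ± 0.12 with 7 of 10 markers down-regulated, and the fibroblast list at 0.28 ± 0.03 with 0 of 9 called. The adipocyte list was at -0.31 ± 0.02 with 0 of 10 called, and the macrophage list at 0.33 ± 0.04 with 0 of 9 called. Of 8 melanocyte markers 4 were up-regulated (0.67 ± 0.05), as were 2 of 10 hair shaft and inner root sheath genes (0.55 ± 0.03). Their part in these values was not tested.

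In MXD at 3W again 0 of 10 genes were called, with a median of -0.08 ± 0.02, and Igfbp3 and Igfbp6 stood at -0.06 ± 0.01 and 0.04 ± 0.34. Igfbp2, a binding protein that can hold IGFs near the cell surface, was the lowest of the 10. It gave 628 and 656 in MXD and 1046 and 950 in VC, without overlap, a log2 fold of -0.64 ± 0.14. Only 1.00% of the genes measured lay lower, and the P was 6.36e-04 on the first array and 0.011 on the other, so the criterion was missed on 1 array. In N-CE at 3W Igfbp2 gave 685 and 1146 against 1012 and 1453, a log2 fold of -0.45 ± 0.16, with P of 0.00747 and 0.0969. It was lower within each array, while the readings of the groups overlap between arrays. Both treatments at 3W used one VC pool, and the readings of that pool on the MXD and the N-CE arrays differed by -0.31 for Igfbp2 on the log2 scale. In MXD at 3W the skeletal muscle list was at -0.42 ± 0.04 with 1 of 10 markers down-regulated. The melanocyte list was at 0.66 ± 0.01 with 6 of 9 up-regulated. The adipocyte, fibroblast and hair shaft lists were at -0.10 ± 0.07, -0.06 ± 0.05 and 0.12 ± 0.13, with 0 called in each. The part of these shifts in the IGF values was not tested.

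In N-CE at 1W the brightest probes of Igfbp3, Igfbp6 and Igf1 were higher than VC, with 0 of 10 genes called. Igfbp3 gave 3409 and 2960 in N-CE against 2526 and 2262 in VC, a log2 fold of 0.41 ± 0.03, and 94.4% of the genes measured lay lower. Its other probes differed from each other: A_52_P851352 gave -0.06 ± 0.07, below 0 on both arrays, and A_51_P228472 gave 0.33 ± 0.05, which became 0.03 with normexp and loess. The direction of Igfbp3 in N-CE at 1W therefore depends on the probe. Igfbp6 gave 7032 and 7162 against 5882 and 5316, a log2 fold of 0.34 ± 0.12. Igf1 gave 4310 and 4183 against 3300 and 3518, a log2 fold of 0.32 ± 0.10. For these 3 genes the N-CE readings lay above the VC readings on both arrays, and the P was above 0.01 on all of them. Igfbp5 had 0.25 ± 0.13 and Igf2 0.08 ± 0.06, while Igf1r had -0.19 ± 0.18. The median of the 10 genes was 0.09 ± 0.05.

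In the same pool 10 of 10 hair shaft and inner root sheath genes were down-regulated, with a median of -2.73 ± 0.23 and sums of 62557 and 47250 in N-CE against 398854 and 347178 in VC. So were 6 of 8 melanocyte markers (-1.80 ± 0.20) and 3 of 8 dermal papilla markers (-0.59 ± 0.29). With normexp and loess these medians came to -1.39 and -0.19. Corin, 1 of the 3 called, was not well above background in N-CE and went from -2.44 to -0.58. The skeletal muscle list was at -0.16 ± 0.04 and the fibroblast list at 0.07 ± 0.01, with 0 called in either. The adipocyte list was at 0.31 ± 0.02 and the endothelial list at 0.29 ± 0.02, again with 0 called. The part of these shifts in the IGF values was not tested.

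In N-CE at 2W 4 of 10 genes had the same direction on both arrays, a share not computed over all genes. Igfbp5 gave 0.32 on one array and -0.77 on the other, a mean of -0.23 ± 0.77, which is no difference beyond the spread between arrays. Igfbp3 repeated closely despite this, with 3626 and 4840 in N-CE against 4617 and 6275 in VC, a log2 fold of -0.36 ± 0.02. So did Igfbp6 with -0.26 ± 0.06, Igf1 with -0.19 ± 0.03 and Igfbp2 with 0.28 ± 0.06, and 0 of 10 genes were called. The other Igfbp3 probes had -0.31 ± 0.08 and -0.20 ± 0.12, on the same side. In that pool 10 of 10 skeletal muscle markers (median -0.43 ± 0.18), 10 of 10 adipocyte markers (-0.32 ± 0.01) and 9 of 9 macrophage markers (-0.27 ± 0.07) also lay below 0, with 1, 1 and 0 of them down-regulated. Of 10 fibroblast markers 9 lay below 0 (-0.13 ± 0.00), with 0 called. Above 0 lay 10 of 10 hair shaft and inner root sheath genes (0.34 ± 0.10, 0 called) and 9 of 9 melanocyte markers (0.45 ± 0.02, 1 up-regulated). The part of these lists in the lower values of Igfbp3, Igfbp6 and Igf1 was not tested. In N-CE at 3W, also with 0 of 10 called, Igf1 had -0.29 ± 0.02, Igf1r 0.18 ± 0.10, Igfbp5 0.17 ± 0.13 and Igfbp3 -0.11 ± 0.04. The weaker Igfbp5 probe had 0.75 ± 0.35 there, which became 0.22 with normexp and loess. Of the marker lists, skeletal muscle stood at -0.35 ± 0.06, macrophages at -0.29 ± 0.00 and adipocytes at -0.20 ± 0.04, with 0 down-regulated in each. Melanocytes stood at 0.56 ± 0.07, with 1 of 9 up-regulated. The part of these lists in the N-CE values at 3W was not tested. The medians of the 10 genes were -0.08 ± 0.30 at 2W and -0.05 ± 0.06 at 3W.

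**Figure D4:**
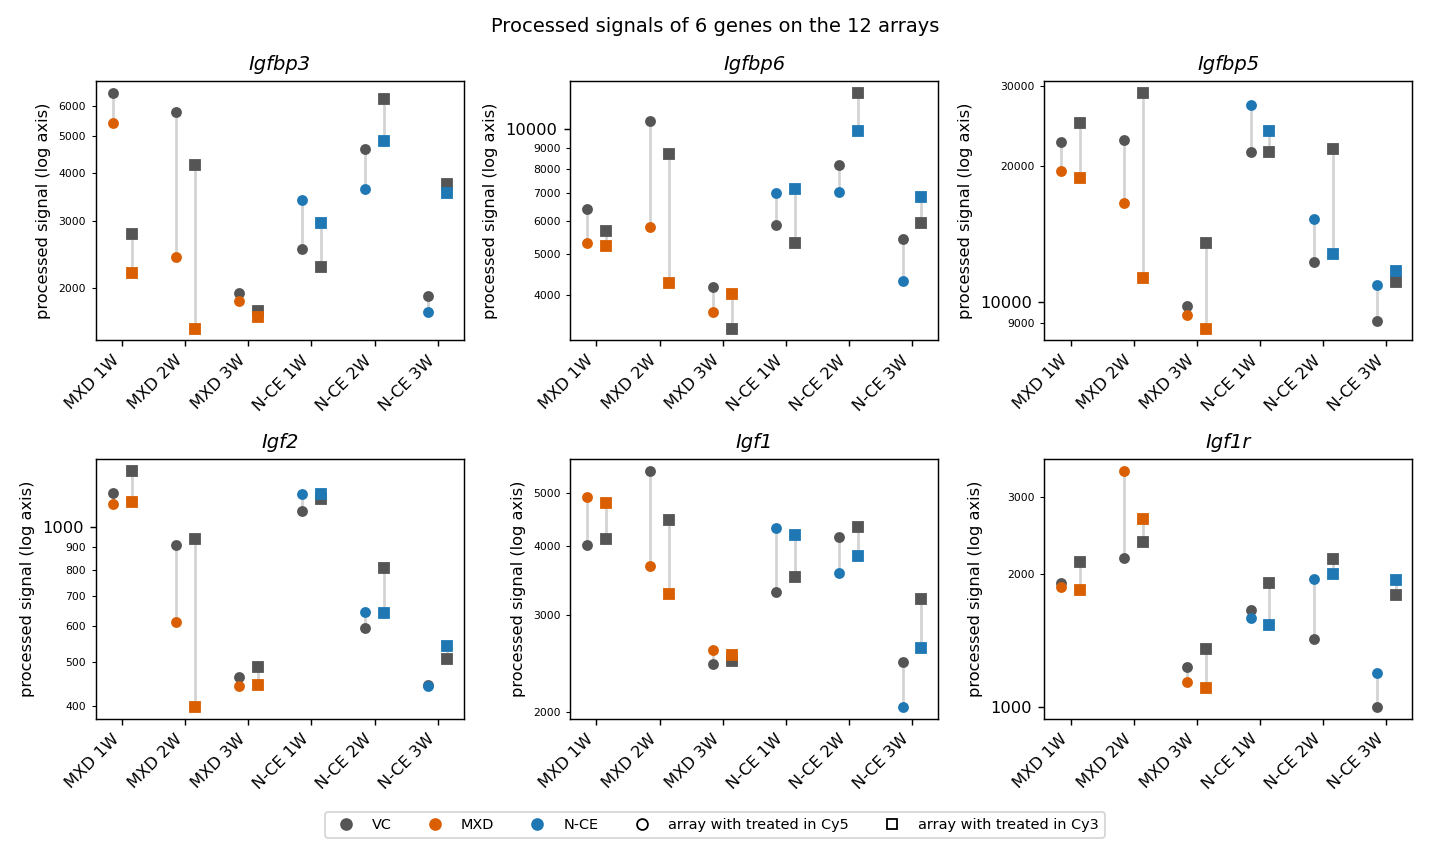
Processed signal (vertical axis, log scale) of Igfbp3, Igfbp6, Igfbp5, Igf2, Igf1 and Igf1r in each comparison (horizontal axis). A grey line joins the VC and the treated reading of 1 array, circles are arrays with the treated pool in Cy5 and squares those with it in Cy3; for Igfbp3 in MXD at 2W the signals are 2416 and 1563 against 5794 and 4190 in VC.

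Among the binding proteins, Igfbp7 and Igfbp4 had the mean log2 folds closest to 0. The mean log2 fold of Igfbp7 lay between -0.09 and 0.04 in the 6 comparisons, and that of Igfbp4 between -0.07 and 0.11, although single arrays of Igfbp4 reached from -0.36 to 0.34. The direction of Igfbp4 differed between the arrays of a dye swap in MXD at 1W and 2W and in N-CE at 2W and 3W. Its means there average opposite values and do not show a steady gene. The mean of Igf2r lay between -0.09 and 0.33, and its direction differed between the arrays of a dye swap in 5 of the 6 comparisons.

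Levels were also set across all 9 pools on one log2 scale, after normexp and loess, with the mean intensity of the 2 channels quantile-normalized between arrays (Aquantile). VC was read on 4 channels a week and each treated pool on 2, and levels of different genes are not compared, since each probe has its own brightness. For Igf2, VC had a level of 9.71 ± 0.09 in the first week, of 8.88 ± 0.17 in the second and of 8.63 ± 0.08 in the last (SD over 4 readings). N-CE followed with 9.74, 8.72 and 8.61, and MXD had 9.57, 8.16 and 8.61. The 3 pools of 1W thus stood highest, MXD at 2W stood lowest, and the pools at 3W and the VC and N-CE pools at 2W lay close together, between 8.61 and 8.88. In MXD at 2W the highest Igf2 reading, 8.30, was below the lowest reading of any other pool, 8.54. H19, the non-coding neighbour of Igf2 in its imprinted cluster, had log2 folds of -0.46 ± 0.16, -0.85 ± 0.74 and -0.38 ± 0.13 in MXD and of 0.22 ± 0.07, -0.36 ± 0.75 and -0.31 ± 0.11 in N-CE, without a call.

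The level of Igfbp3 was lowest in MXD at 2W, 9.92 ± 0.18, and its highest reading there, 10.05, was below the lowest of the other pools, 10.20 in MXD at 3W. Above it came MXD at 3W with 10.33 ± 0.19, VC at 3W with 10.60 ± 0.39 and N-CE at 3W with 10.70 ± 0.53. The other 5 pools lay between 11.10 and 11.38 and did not differ beyond their spread. Single readings of Igfbp3 at 1W were far apart, from 10.59 to 12.16 in VC, with both channels of one array high together. The VC level at 1W differed by 0.75 between the MXD and the N-CE arrays, although the RNA was the same, where 95% of genes differed by less than 0.28. For Igfbp7 at 2W this difference in VC was 0.67, where 95% of genes differed by less than 0.51. For Igfbp6 at 3W it was 0.59, against 0.53. Ratios within an array are therefore the firmer measure for these genes. Igfbp5, at 13.77 ± 0.06 in VC at 1W, differed from that by -0.78 in VC at 3W, and Igf1 went from a VC level of 11.27 ± 0.10 at 1W to 10.88 ± 0.11 at 3W. In MXD at 2W Igf1 was at 10.66 ± 0.08, which overlaps N-CE at 3W with 10.68 ± 0.06.

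**Figure D5:**
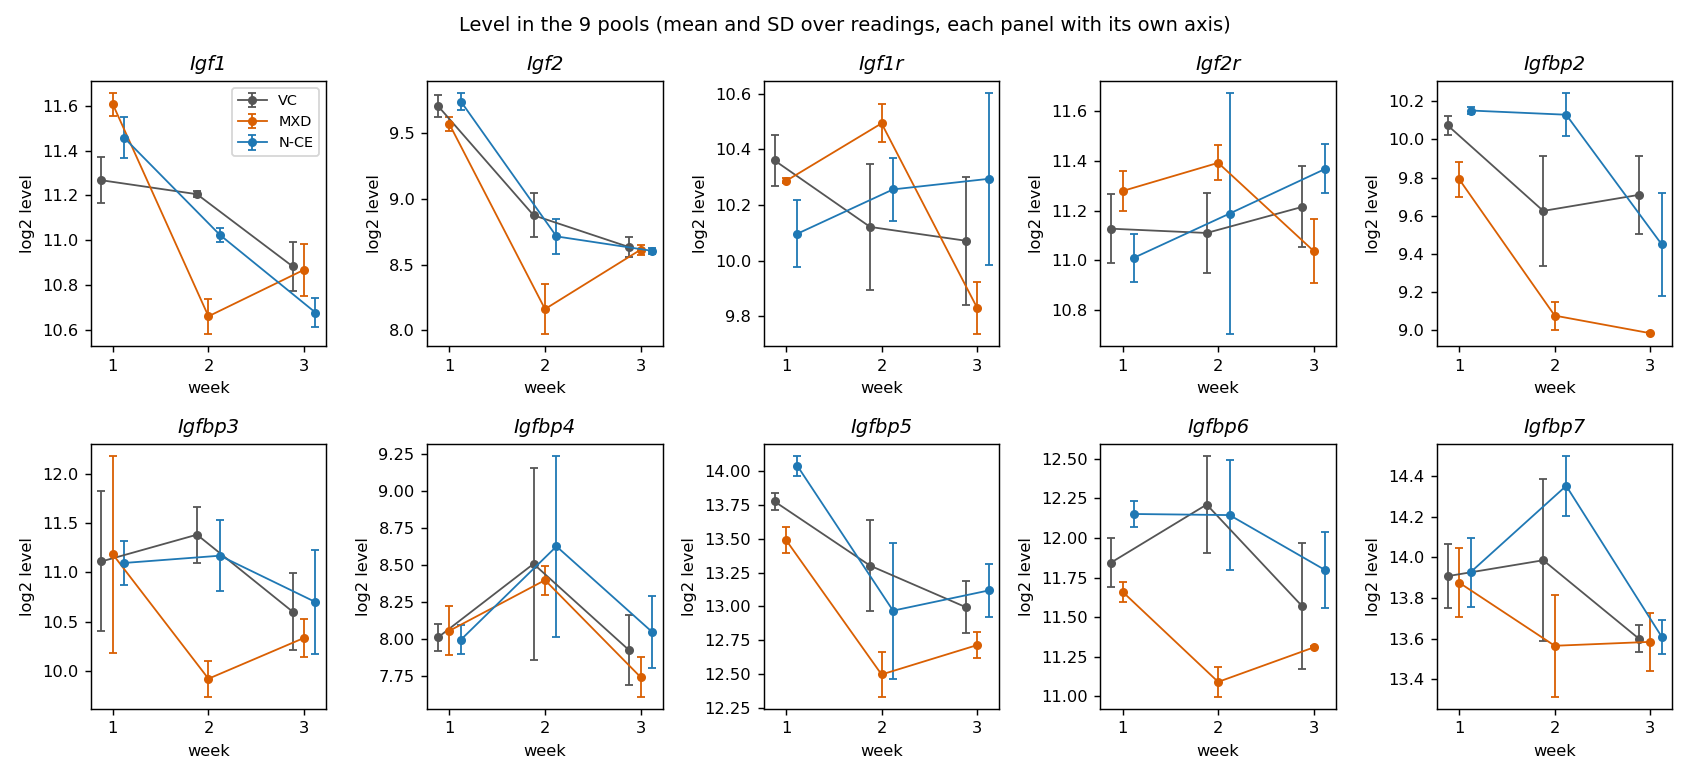
Log2 level (vertical axis, own scale in each panel) of the 10 genes in the VC, MXD and N-CE pools by week (horizontal axis), as mean and SD over 4 readings for VC and 2 for the treated pools. Igf2 goes from 9.71 to 8.63 in VC between 1W and 3W, and Igfbp3 is lowest in MXD at 2W, at 9.92.

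Of the other genes of the pathway, 62 were measured in MXD at 2W in 5 lists, and 2 were up- and 8 down-regulated, with a median of -0.04. Over all genes 6.21% were up- and 10.0% down-regulated, so these counts, and those of the short lists below, are a description and not a result about the pathway. The protease gene Pappa was up-regulated, with 0.83 ± 0.07, the 1 call among 11 regulators of IGF availability (list median 0.11), and so was Foxo3, a transcription factor held back by AKT, with 0.90 ± 0.34. In the growth hormone axis 3 of 9 genes were down-regulated, with a list median of -0.61. They were the growth hormone receptor Ghr with -0.93 ± 0.40 and the signal transducers Stat5a with -0.82 ± 0.03 and Stat5b with -0.87 ± 0.43. Among relatives of the binding proteins 3 of 10 were down-regulated, Kazald1 with -1.32 ± 0.31, Nov with -1.25 ± 0.09 and Wisp2 with -0.86 ± 0.00. The value of Nov became -0.35 with normexp and loess. Of 11 genes for the insulin receptor family and its adaptors, the inhibitory adaptors Grb10 with -0.71 ± 0.12 and Grb14 with -1.01 ± 0.23 were down-regulated. Of 21 genes for PI3K, AKT, mTOR and FOXO, Foxo3 was the 1 called, and the median was 0.07. Htra1 had -0.73 ± 0.45 without a call.

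Pappa was the 1 pathway gene called in more than 1 comparison. It was down-regulated in N-CE at 1W, with -0.70 ± 0.02, and up-regulated in N-CE at 2W, with 0.64 ± 0.01. At 1W and 3W in MXD it had 0.23 ± 0.02 and 0.33 ± 0.10, and in N-CE at 3W 0.35 ± 0.13. The hair shaft and inner root sheath list lay at 0.55, 1.22 and 0.12 in MXD and at -2.73, 0.34 and -0.01 in N-CE, on the same side of 0 as Pappa in the first 5 of these comparisons. In MXD at 3W its median, 0.12 ± 0.13, was within its spread. The melanocyte list (0.67, 1.24 and 0.66 in MXD, -1.80, 0.45 and 0.56 in N-CE) lay on the side of Pappa in all 6. The dermal papilla medians were 0.03, 0.52 and 0.08 in MXD and -0.59, 0.17 and 0.21 in N-CE. That of MXD at 1W, 0.03 ± 0.14 with 5 markers above and 5 below 0, was no shift, and the others lay on the side of Pappa. The part of these lists in the Pappa values was not tested.

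In the other comparisons few pathway genes were called. MXD at 1W had 1 of 63, Wisp1 with 0.66 ± 0.02, and Adam12 had 0.79 ± 1.65, within its own spread. MXD at 3W had 1 of 61, Esm1 with -1.46 ± 0.68, which became -0.51 with normexp and loess, and Htra1 had -0.53 ± 0.05 without a call. N-CE at 1W had Cyr61 up-regulated with 0.69 ± 0.19 beside Pappa, of 60 genes. N-CE at 2W had Pappa alone of 61, and N-CE at 3W had 0 of 62, where Nov with -0.55 and Pik3r1 with 0.49 ± 0.19 lay farthest from 0. With normexp and loess Nov came to -0.18.

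Genes whose log2 folds ran most like those of the called binding proteins over the 12 arrays were sought among 13079 named genes above background in every reading. For Igfbp3 they were Tbx15, a transcription factor gene of dermal cells, with Pearson's r of 0.99, Traf5 with 0.99 and Gstt2 with 0.98. In MXD at 2W these had log2 folds of -1.23, -0.56 and -1.07. For Igfbp6, Ly6d and Nos3 each had r of 0.98, with log2 folds of -0.64 and -0.67 in MXD at 2W. Between Igfbp3 and Igfbp6 r was 0.93, and Igfbp3 had 0.87 with Igf2, 0.76 with Igf1, 0.72 with Igfbp5 and -0.62 with Igf1r. The arrays share VC pools and dye-swapped RNA, so the 12 points are not independent and r is a description. Igfbp3 lay at -1.34 in MXD at 2W and between -0.36 and 0.41 elsewhere. Igfbp6 lay at -0.94 there and between -0.26 and 0.34 elsewhere. The arrays of MXD at 2W thus weigh heavily in r, which was not computed without them.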

How the data were processed

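The authors labelled pooled back-skin RNA with Cy3 and Cy5 and hybridized it to 12 Agilent whole mouse genome arrays. Per the file headers the scans were read by Agilent Feature Extraction 12.0.3.1, while the submitters' processing notes name 11.0.1.1. The deposited log10 ratio (Cy5 over Cy3, background-subtracted, LOWESS dye-normalized), its error-model p-value for each spot and the processed signal intensity of each channel were used. The deposited value table equals the log10 of the ratio of the processed intensities. Probe positions are on mm9. Between 57.0% and 69.6% of transcript spots per channel were well above background.

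Ratios were turned to treated over VC, converted to log2 and averaged over spots and dye swap, without control and outlier spots. A gene takes its probe of highest mean signal, and a probe printed more than once takes the median p-value of its copies. With 1 pool a group, no test across samples was made, and errors describe the measurement. Python 3.11.15, pandas 2.3.3, R 4.3.3 and limma 3.58.1 (normexp offset 50, loess, Aquantile) were used, and the call rule was tested on simulated data. Alternatives were other normalizations, probe rules, thresholds and single arrays. Named were all 10 members, other pathway genes called or among the 2 farthest from 0 in a comparison (both groups above background), and for each called member the 3 genes most like it, of which 1 is not reported here. The pathway lists were binding protein relatives, regulators of IGF availability, the growth hormone axis, the insulin receptor family and adaptors, and PI3K, AKT, mTOR and FOXO. Members and lists were chosen with earlier results of these data known. The number of arrays limits the precision.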

Additional observations from a re-analysis of the deposited data

Results flagged for a closer look

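The effect of one treatment lay on opposite sides of 0 in 2 weeks, on all arrays of both, for 12 of 60 pairs of weeks over the 10 genes, and the difference was not tested. The share over all genes was not computed, so the count is a description and not a result about the axis. For MXD, the log2 fold of Igf1 differed by -0.77 between 1W and 2W (the later week minus the earlier) and by 0.57 between 2W and 3W, and that of Igf1r by 0.53 and by -0.62. For N-CE, Igf1 differed by -0.51 between 1W and 2W and by -0.60 between 1W and 3W. Igf1r differed by 0.37 between 1W and 3W. Igfbp2 differed by -0.53 between 1W and 3W and by -0.73 between 2W and 3W. Igfbp3 differed by -0.77 between 1W and 2W and by -0.52 between 1W and 3W, and Igfbp6 by -0.60 between 1W and 2W. These values are of the brightest probes. Igfbp2 and Igfbp6 have 1 probe each, and of the 9 pairs of weeks from genes with several probes 0 showed opposite sides on every probe. For Igfbp3 in N-CE, the probe A_52_P851352 gave -0.06, -0.31 and -0.22 at 1W, 2W and 3W, below 0 on every array. Each week has its own slide and VC pool, so the week cannot be told apart from them. The protease gene Pappa, which is called in both N-CE at 1W and N-CE at 2W, differed by 1.35 between these weeks and by 1.05 between 1W and 3W.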

How the results depend on the processing

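No log2 fold of a called gene changed sign under the 8 alternatives tried for it (0 cases). Neither single array could change a sign, since a call needs the same direction on both. Requiring signals above background could only drop a value, and the deposited value table repeats the same ratio. Of 480 values of the 10 genes 465 moved by less than the SD over the 2 arrays. Averaging all probes of a gene gave 13 of the other 15. A single array always lies nearer to the mean than this SD, and every reading of these brightest probes was above background. Those alternatives therefore had to stay within the SD and add no support to the count. The deposited value table holds the same ratios, so its values could not move either. Keeping outlier spots could change only Igf1 and Igf2, whose brightest probes have several copies. For the other genes it adds no support. Igfbp3 and Igfbp6 stayed down-regulated in MXD at 2W under all 10 alternatives for the calls. Of these, dropping the P and requiring signals above background could only keep the calls of Igfbp3 and Igfbp6. The deposited value table holds the same ratios and could not change them. Both brightest probes have 1 copy that was not an outlier, so keeping outlier spots changed nothing. Igfbp6 has 1 probe, so averaging probes left it as it was. Where the normalization was changed, the P of the main calls was kept. These alternatives add little or no support to the calls. With the array with the treated pool in Cy5 alone 4 genes instead of 2 were called in MXD at 2W (with Igf1 and Igf1r), and 1 instead of 0 in both MXD and N-CE at 3W (Igfbp2). With the array in Cy3 alone they were 4 in MXD at 2W (with Igf2 and Igfbp5), 1 in MXD at 3W and 1 in N-CE at 2W (Igfbp5 in both). Without the P, 5 genes passed in MXD at 2W (Igf1, Igf2 and Igfbp5 joined) and 1 each in MXD and N-CE at 3W (Igfbp2). Calling a gene through any of its probes, chosen after seeing the data, gave 3 in MXD at 2W, with Igf1. Averaging all probes moved the median of the 10 genes from -0.14 to -0.0022 in MXD at 1W and from -0.08 to -0.012 in MXD at 3W; the cause was not tested. No paired analysis was possible because every group is 1 pool with the replicate number 1.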
